A study of Mus musculus with 6 samples.

Results

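The p53 pathway was read here through Trp53, the mouse gene of the transcription factor p53, and through Cdkn1a, Mdm2, Ccng1, Phlda3, Zmat3, Trp53inp1, Eda2r, Aen and Btg2, genes that p53 activates directly. The members were taken by name, each at probe sets that the platform annotation lists with that gene alone. This gave 9 of the 10 genes, each with 1 probe set, out of 22180 genes measured in this way. Trp53 was listed with 0 probe sets, so its own transcript was not analysed here. RNA came from RAW 264.7 cells, a mouse macrophage-like line, on 6 arrays. In the Mist-targeted group (3 samples) the cells received a GapmeR against Mist, a long noncoding RNA; GapmeRs are antisense oligonucleotides, modified with locked nucleic acid, that let RNase H cut the RNA they pair with. In the Control group (3 samples) the GapmeR had no target. Both were transfected with Lipofectamine RNAiMAX at 50 nM, and RNA was taken after 48 h. The labels name 1 GapmeR against Mist, and the platform annotation named 0 probe sets Mist, so the groups rest on the labels alone.

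p53 is kept low in unstressed cells because the ubiquitin ligase MDM2 marks it for degradation. DNA damage, ribosomal stress or oncogene activity stabilise the protein, which then binds a paired, palindrome-like DNA element near its targets. Those targets halt the cell cycle, repair DNA, promote cell death or, like Mdm2, switch p53 off again. Since the control acts largely on the protein, target transcripts are the usual RNA readout of p53 activity.

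Letters close to the consensus of that element occur in the promoters of several members, which are shown here because these genes are the readout. RefSeq windows (GRCm38.p6) of 300 bases, 250 before and 50 after a transcription start, were held for 8 of the 10 genes, in 10 windows. They were searched for the p53 consensus element, a pair of half-sites with no spacer and 20 letters in all, allowing up to 3 mismatches outside the 4 core C and G letters; the consensus is its own reverse complement, so both strands were covered. Of all 32851 windows 1.38% held such a match and 0.067% held one with at most 1 mismatch. Capitals mark the match in the 3 windows below, which lie at chr17:29090729-29091028 on the plus strand, chr11:40755237-40755536 on the minus strand and chr7:78895808-78896107 on the plus strand.
Cdkn1a: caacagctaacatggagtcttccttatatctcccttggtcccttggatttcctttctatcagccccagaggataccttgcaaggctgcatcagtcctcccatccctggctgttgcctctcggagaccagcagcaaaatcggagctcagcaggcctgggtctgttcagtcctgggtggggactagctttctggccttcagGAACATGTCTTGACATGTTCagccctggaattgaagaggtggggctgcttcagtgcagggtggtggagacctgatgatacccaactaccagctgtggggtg
Ccng1: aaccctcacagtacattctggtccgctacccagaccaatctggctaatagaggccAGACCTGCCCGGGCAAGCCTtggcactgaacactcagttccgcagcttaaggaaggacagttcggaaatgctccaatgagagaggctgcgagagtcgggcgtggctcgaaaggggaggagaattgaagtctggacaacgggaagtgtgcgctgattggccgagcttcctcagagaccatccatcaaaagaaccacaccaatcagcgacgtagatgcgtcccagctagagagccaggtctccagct
Aen: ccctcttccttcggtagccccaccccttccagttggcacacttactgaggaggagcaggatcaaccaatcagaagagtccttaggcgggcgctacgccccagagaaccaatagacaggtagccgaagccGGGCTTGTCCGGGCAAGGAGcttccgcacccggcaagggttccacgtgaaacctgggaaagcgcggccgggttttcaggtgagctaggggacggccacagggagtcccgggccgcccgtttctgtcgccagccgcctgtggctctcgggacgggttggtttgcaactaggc
The Cdkn1a window belongs to the more upstream of 2 RefSeq starts, and its match, with 1 mismatch, spans positions -51 to -32 from that start. The Ccng1 match had 1 mismatch and lay at -195 to -176. The Aen match had 3 mismatches, lay at -121 to -102 from one start and was shared with the overlapping window of another. The Trp53 window held a match with 3 mismatches at -75 to -56, and the windows of Mdm2, Phlda3, Eda2r and Btg2 and the second window of Cdkn1a held none under this rule. p53 drives Mdm2 from an internal promoter, and the windows were not chosen to include it. A match is a description of the letters and not a binding site measured in these cells. Zmat3 and Trp53inp1 had no entry.

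The arrays had medians of 4.47 to 4.50 on the log2 scale, and arrays of the same group correlated at 0.988 to 0.991, against 0.986 to 0.989 for arrays of different groups. The 8 macrophage markers had group means of 6.95 to 12.77 in Mist-targeted cells and 6.97 to 12.83 in Control cells, and none passed the test. At an unadjusted p under 0.05 by limma were 2 of them, without overlap between groups and in opposite directions: Adgre1, a macrophage surface receptor gene, which differed by 0.23 ± 0.089 on the log2 scale (SE), and the endotoxin co-receptor gene Cd14, by -0.28 ± 0.10. These names were picked after seeing the values. Of all genes, 11.0% lay under that unadjusted p, and the groups did not overlap in 20.0%, against 25.0% of the macrophage markers. The 15 measured markers of T cells, B cells, fibroblasts and granulocytes had group means of at most 4.63, near the array medians. Nothing states whether each replicate was its own culture; the p-values then cover only the scatter among these 6 arrays, possibly technical, and this number of arrays limits the precision.

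None of the 9 measured p53 targets changed with the Mist-targeted GapmeR at an adjusted p under 0.05 (limma, Benjamini-Hochberg over all probe sets; lowest adjusted p = 0.166), where 0.415% of all genes passed. At an unadjusted p under 0.05, 2 of the 9, Aen and Phlda3, were higher with the Mist-targeted GapmeR, where 11.0% of all genes lay under that value, 5.24% higher and 5.79% lower. Log2 differences, always Mist-targeted minus Control, ran from -0.16 to 0.38 over the 9 genes. They were positive in 5 and negative in 4, with a median of 0.0048, against 0.0069 over all genes. The members' median size of difference, regardless of sign, was 0.053, against 0.089 over all genes. The groups did not overlap in 2 of 9 members (22.2%), against 20.0% of all genes (9.99% all above and 9.97% all below), so the members' share is near the background. Both group means lay below the array medians for 10161 of the 22180 genes and 1 of the 9 members. Shares over all genes, here and below, thus include many dim genes. For 8 of the 9 the 95% interval of the difference, unadjusted for the number of genes, lay within a change of 1.5-fold in either direction, which held for 93.2% of all genes. In bulk RNA, fewer expressing cells and less RNA per cell cannot be told apart.

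**Figure D1:**
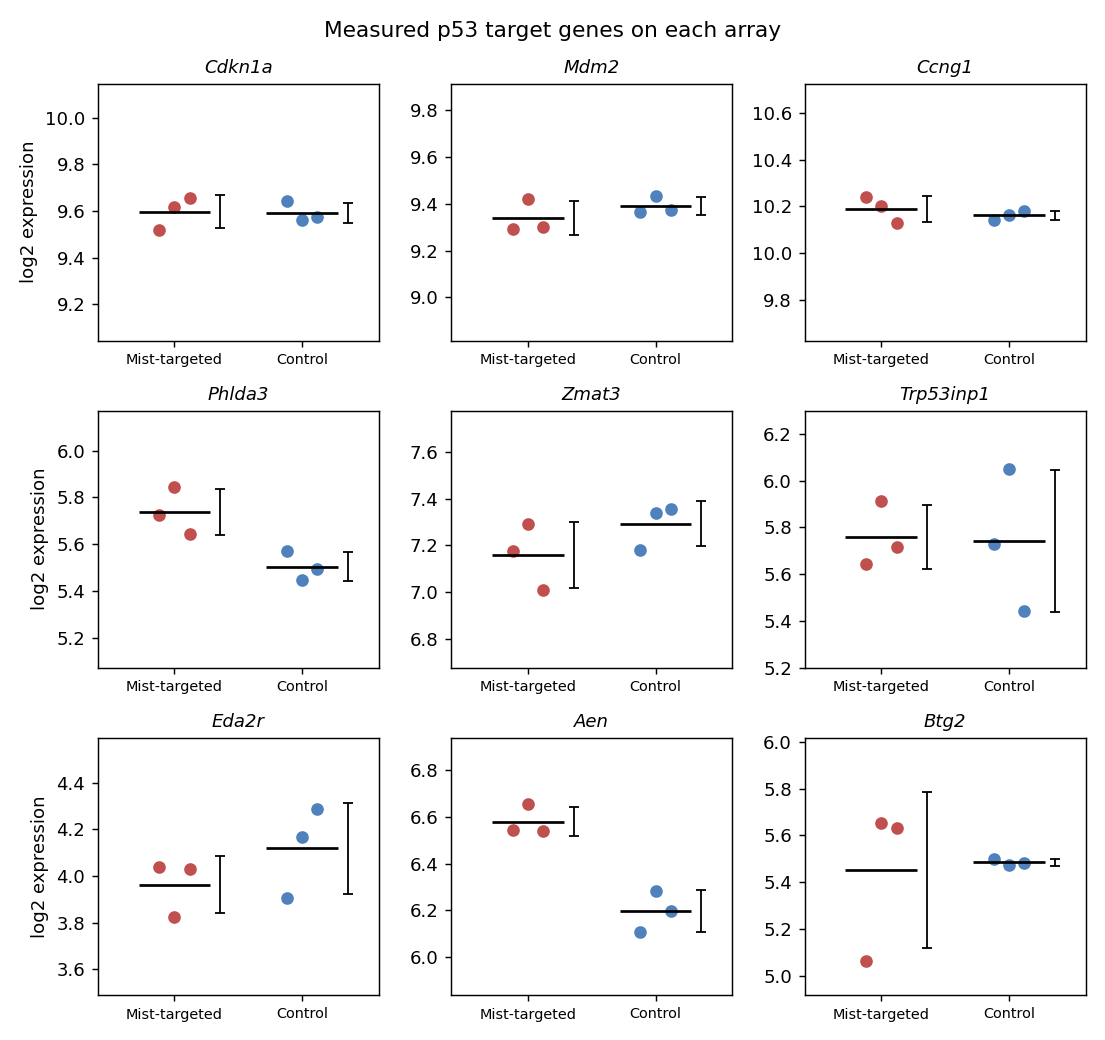
Log2 expression of each measured p53 target on each array, with Mist-targeted arrays (red, left) and Control arrays (blue, right); points are arrays in replicate order, horizontal bars are group means, vertical bars are 1 SD (n = 3 each), and each panel spans the same height on the log2 scale. Only Aen and Phlda3 have all Mist-targeted points above all Control points; the widest scatter is in Trp53inp1 among Control arrays and in Btg2 among Mist-targeted arrays.

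Among the cell cycle genes, Cdkn1a is the classical p53 target and encodes p21, an inhibitor of cyclin-dependent kinases (CDKs). Its log2 expression was 9.52, 9.62 and 9.65 on the Mist-targeted arrays and 9.64, 9.56 and 9.58 on the Control arrays. The groups overlapped, with the lowest and the highest value both among Mist-targeted arrays. The difference was 0.0048 ± 0.082 (SE, n = 3 each), with a 95% interval of -0.19 to 0.20, or 0.878-fold to 1.15-fold (limma, adjusted p = 0.993). Its sign turned under median centring (-0.0021), so no direction can be given.

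Ccng1, which encodes cyclin G1, a negative regulator of p53 that binds the phosphatase PP2A, had 10.24, 10.20 and 10.13 on the Mist-targeted arrays and 10.14, 10.16 and 10.18 on the Control arrays. The Control values lay inside the span of the Mist-targeted ones. The difference was 0.028 ± 0.079, with an interval of -0.16 to 0.21 (limma, adjusted p = 0.959). Btg2, an antiproliferative cofactor of mRNA deadenylation, had 5.06, 5.65 and 5.63 on the Mist-targeted arrays and 5.50, 5.47 and 5.48 on the Control arrays. Mist-targeted replicate 1 was the lowest of the 6, and the other Mist-targeted arrays were above all Control arrays. The difference of -0.034 ± 0.16 (limma, adjusted p = 0.977) became 0.16 without Mist-targeted replicate 1 (adjusted p = 0.651), so its sign rested on that array.

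None of the 3 targets with feedback, RNA-binding or stress roles passed the test. Mdm2, whose product degrades p53 and whose transcription p53 drives from an internal promoter, had 9.29, 9.42 and 9.30 on the Mist-targeted arrays and 9.36, 9.44 and 9.37 on the Control arrays. The groups overlapped through Mist-targeted replicate 2. The difference was -0.053 ± 0.083, with an interval of -0.25 to 0.14 (limma, adjusted p = 0.911). Zmat3, a zinc finger RNA-binding protein that affects splicing and mRNA stability, had 7.18, 7.29 and 7.01 on the Mist-targeted arrays and 7.18, 7.34 and 7.36 on the Control arrays. The Mist-targeted arrays other than replicate 2 were below every Control array, and the difference was -0.13 ± 0.10 (limma, adjusted p = 0.768). A further probe set listed with both Zmat3 and 4930429B21Rik differed by 0.046 ± 0.10 and cannot be assigned to either. Trp53inp1, a stress protein linked to p53 activation and autophagy, had 5.64, 5.91 and 5.72 on the Mist-targeted arrays and 5.73, 6.05 and 5.44 on the Control arrays. The Control arrays held both extremes, over a span of 0.61, against 0.27 among Mist-targeted arrays. The difference was 0.017 ± 0.16, with an interval of -0.35 to 0.39 (limma, adjusted p = 0.989); it was -0.13 without Control replicate 3 and 0.17 without Control replicate 2, so its sign is not settled.

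Among the members with roles in cell death, Aen had the largest difference of the 9. Aen encodes an apoptosis-enhancing exonuclease of the nucleolus and nucleus. Its log2 expression was 6.55, 6.65 and 6.54 on the Mist-targeted arrays and 6.11, 6.28 and 6.20 on the Control arrays. All Mist-targeted values were above all Control values, and the spread inside each group was smaller than the gap between the means. The difference was 0.38 ± 0.088, or 1.30-fold, with an interval of 0.18 to 0.59 (limma, unadjusted p = 0.0028, adjusted p = 0.166). With only probe sets of 1 listed gene tested, the same difference passed (limma, adjusted p = 0.039), in a setting that called 3.05% of all genes (1.18% upward and 1.88% downward). With the probe sets of each gene averaged the adjusted p was 0.036, and over the settings that left out 1 array the difference was 0.34 to 0.43 with adjusted p of at least 0.308.

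Phlda3, a pleckstrin homology protein that restrains AKT signalling, had 5.72, 5.84 and 5.64 on the Mist-targeted arrays and 5.57, 5.45 and 5.49 on the Control arrays. The groups did not overlap, though the lowest Mist-targeted and the highest Control value were close. The difference was 0.23 ± 0.090, with an interval of 0.023 to 0.44 (limma, unadjusted p = 0.034, adjusted p = 0.451). Eda2r, the receptor of the ectodysplasin A2 ligand, had 4.04, 3.82 and 4.03 on the Mist-targeted arrays and 3.90, 4.17 and 4.29 on the Control arrays. Each group averaged less than the lowest array median, and background was not measured, so a difference of this gene may be hidden. The difference was -0.16 ± 0.12 (limma, adjusted p = 0.771), and the groups overlapped.

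**Figure D2:**
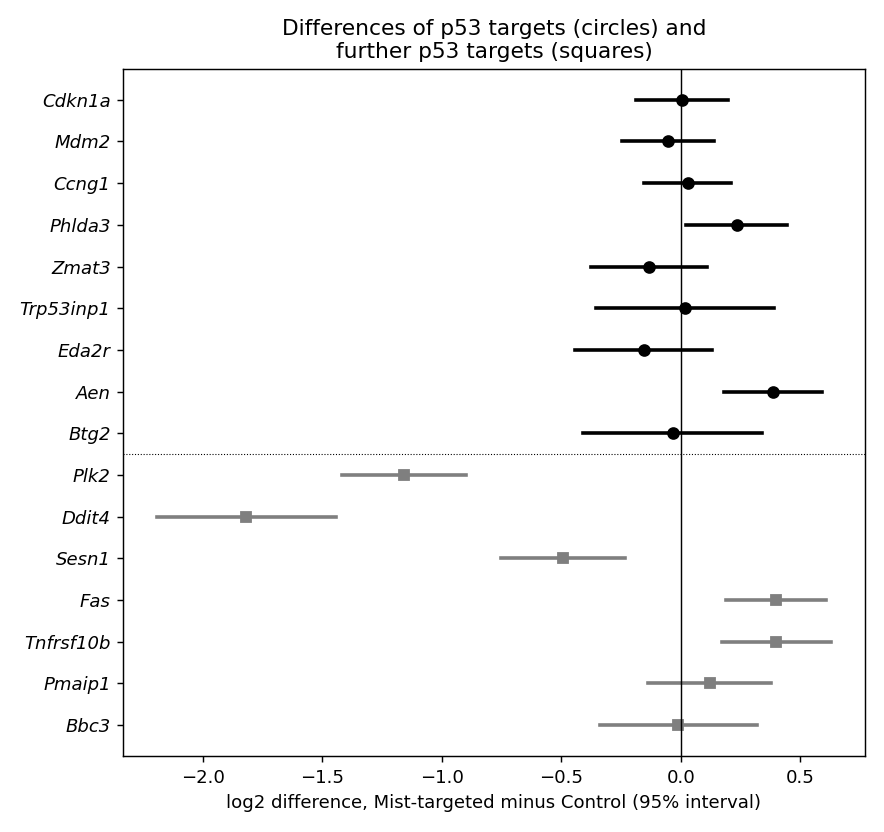
Log2 difference, Mist-targeted minus Control, with its unadjusted 95% limma interval, for the 9 measured members (black circles) and 7 further p53 targets named by rule (grey squares). The intervals of 7 members include 0 and those of Aen and Phlda3 lie above it; of the further targets, the intervals of Fas and Tnfrsf10b lie above 0, those of Plk2, Ddit4 and Sesn1 below it, and those of Pmaip1 and Bbc3 include it.

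The other p53 targets in arrest and repair included the 1 call on the 5 further lists. Of 17 measured genes on that list 1 fell, 0 rose and 16 did not pass, where 0.203% of all genes fell and 0.212% rose. The list's median difference was 0.013. The groups did not overlap in 4 of the 17 (23.5%), near the 20.0% of all genes. These 4 were all below and 0 were above, where 9.97% of all genes were below and 9.99% above. At an unadjusted p under 0.05 (limma) 3 were lower and 0 higher, where 5.79% of all genes were lower and 5.24% higher. Plk2, a polo-like kinase, had 8.54, 8.65 and 8.55 on the Mist-targeted arrays and 9.88, 9.80 and 9.53 on the Control arrays. The groups were far apart, and the fall was 2.23-fold (-1.16 ± 0.11, limma, adjusted p = 0.017). The call remained without Control replicate 3 (adjusted p = 0.035) and ended without each of the other 5 arrays, where the adjusted p was 0.052 to 0.108, and with the replicate number as a block (0.115). The sestrins, which are stress-induced inhibitors of mTORC1, were both lower on every Mist-targeted array without passing the test. Sesn1 had 6.42, 6.39 and 6.67 on the Mist-targeted arrays and 6.85, 7.03 and 7.08 on the Control arrays, a difference of -0.49 ± 0.11 (limma, adjusted p = 0.158). Sesn2, chosen for naming after its values were seen, had 6.30, 6.32 and 6.84 on the Mist-targeted arrays and 7.33, 7.29 and 7.11 on the Control arrays (-0.76 ± 0.16, limma, adjusted p = 0.138). Ddit4, an mTORC1 inhibitor that p53 and other stress factors can induce, is on none of these lists. It fell by 1.82 on the log2 scale (limma, adjusted p = 0.014). Its Mist-targeted mean of 4.22 lies below the array medians, so the size is uncertain. With the replicate number as a block limma called 0 of all genes, so the Ddit4 call ended there. Its values in the other settings are not given here. Plk2, Sesn2 and Ddit4 are known to respond to other factors besides p53. The cause of their differences, and of those of the genes named below, was not tested. The long noncoding RNA gene Trp53cor1 (lincRNA-p21), chosen for naming after its values were seen, is a p53 target beside Cdkn1a. It had 5.14, 5.65 and 5.29 on the Mist-targeted arrays and 5.66, 5.51 and 5.62 on the Control arrays, with overlap (-0.23 ± 0.14, limma, adjusted p = 0.674).

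Of 11 measured further targets in cell death, 0 passed, and the groups did not overlap in 4 (36.4%), against 20.0% of all genes. At an unadjusted p under 0.05 (limma) 2 were higher and 1 was lower, where 11.0% of all genes lay under that value. The death receptor gene Fas had 6.03, 5.92 and 5.83 on the Mist-targeted arrays and 5.58, 5.46 and 5.54 on the Control arrays. All Mist-targeted values were the higher ones (0.40 ± 0.090, limma, adjusted p = 0.162). Tnfrsf10b, the mouse TRAIL receptor gene, had 5.78, 5.79 and 5.99 on the Mist-targeted arrays and 5.49, 5.52 and 5.35 on the Control arrays, also without overlap (0.40 ± 0.098, limma, adjusted p = 0.191). The BH3-only genes of the mitochondrial pathway showed no such separation: Pmaip1 (Noxa) differed by 0.12 ± 0.11 and Bbc3 (Puma) by -0.011 ± 0.14. Both group means of Bbc3 (4.42 and 4.43) lay below the array medians, so a difference of this gene may be hidden. Also without overlap were Apaf1, higher (0.13 ± 0.087), and Dram1, lower (-0.26 ± 0.091), both named after their values were seen. Bax and Gadd45a were not listed with a probe set of their own and were not analysed here.

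Among the 21 regulators and relatives of p53, 0 passed, and 3 had an unadjusted p under 0.05 (limma), against 11.0% of all genes. The median difference was 0.016, and the groups did not overlap in 8 (38.1%), against 20.0% of all genes. Mdm4, the partner of MDM2 that blocks the transactivation domain of p53, differed by -0.022 ± 0.096. Daxx, a chromatin and death-domain adaptor that binds p53 and MDM2, had 8.17, 8.04 and 8.10 on the Mist-targeted arrays and 7.54, 7.58 and 7.61 on the Control arrays. The groups were well apart, and the difference of 0.52 ± 0.082 missed the threshold (limma, adjusted p = 0.064). Daxx passed in 4 of the 13 alternative settings, among them eBayes with trend and robust (adjusted p = 0.028) and the test without the dimmest 40% of probe sets (0.049). Atr, the kinase that senses stalled replication, had 7.54, 7.71 and 7.53 on the Mist-targeted arrays and 7.90, 8.16 and 8.11 on the Control arrays (-0.46 ± 0.10, limma, adjusted p = 0.158). These values are from the brighter of its 2 probe sets. With both averaged, the difference was only -0.19 (limma, adjusted p = 0.390).

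The list of CDK complexes and Cip/Kip inhibitors and the RB and DREAM list also held 0 calls. Of 12 measured CDK complex and Cip/Kip genes 3 had an unadjusted p under 0.05 (limma), against 11.0% of all genes. The groups did not overlap in 8 (66.7%), 6 of them above and 2 below, against 20.0% of all genes (9.99% above and 9.97% below), and the median difference was 0.11, against 0.0069 over all genes. Cdkn1b, which encodes the related CDK inhibitor p27, had 6.52, 6.82 and 6.69 on the Mist-targeted arrays and 7.36, 7.33 and 7.17 on the Control arrays. It was lower on every Mist-targeted array without passing the test (-0.61 ± 0.11, limma, adjusted p = 0.084), and it passed with only single-gene probe sets tested (0.0066). Ccne1, the cyclin E1 gene, had 7.46, 7.34 and 7.70 on the Mist-targeted arrays and 6.99, 6.85 and 7.08 on the Control arrays (0.53 ± 0.12, limma, adjusted p = 0.156). Of the 15 genes on the RB and DREAM list, 0 passed and 4 had an unadjusted p under 0.05 (limma), where 11.0% of all genes did. The groups did not overlap in 6 of the 15, against 20.0% of all genes. Those on this list with the smallest p were Mybl2 (0.38 ± 0.11) and Lin9 (0.32 ± 0.10). Over all 5 further lists, 1 of 76 measured genes was called, where 0.415% of all genes were. The groups did not overlap in 30 of the 76 (39.5%), 17 above and 13 below, against 20.0% of all genes. Both group means lay below the array medians for 6 of these 76, so the shares over all genes are not matched to them for expression. With only single-gene probe sets tested, 9 of 76 were called, where that setting called 3.05% of all genes (1.18% upward and 1.88% downward). Those upward were Daxx, Ccne1, Fas and Tnfrsf10b, and those downward were Plk2, Sesn1, Sesn2, Cdkn1b and Atr, with adjusted p values of 0.00014 for Plk2 and 0.0056 to 0.044 for the others (limma). With the probe sets of each gene averaged, the same genes other than Atr were called.

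**Figure D3:**
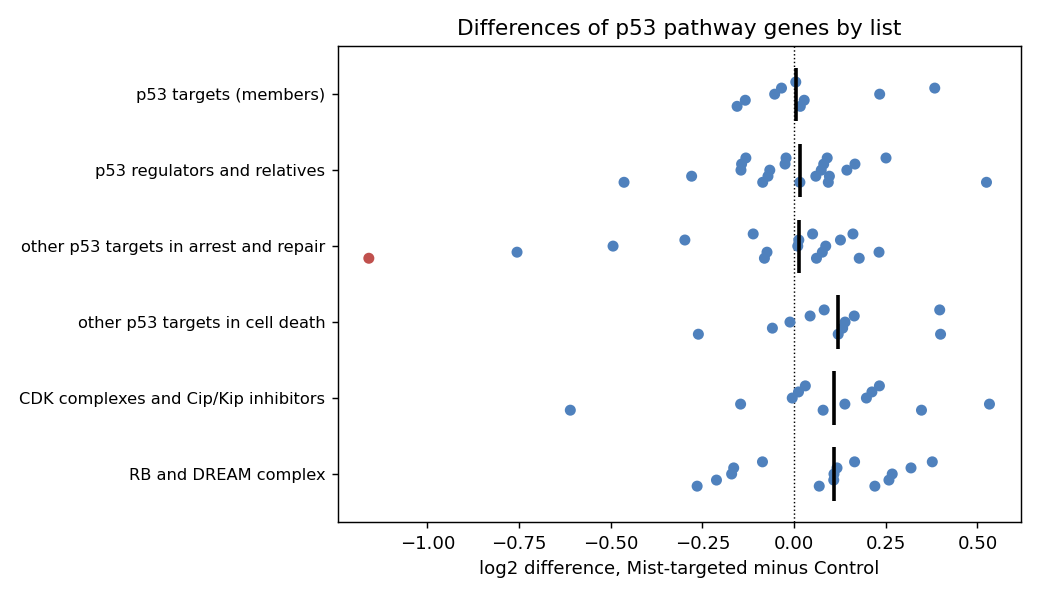
Log2 difference, Mist-targeted minus Control, of each measured gene by list; points are genes, red marks an adjusted p under 0.05 (limma), blue the rest, vertical bars are list medians and vertical position within a list has no meaning. The members lie between -0.16 and 0.38, and the 1 red point is Plk2 at -1.16.

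The pattern of Cdkn1a over the 6 arrays was closest, by Pearson's r among 19380 named genes, to that of Ptp4a2 (r = 0.995) and Fam207a (r = 0.98). The range of Cdkn1a over the arrays was 0.13 on the log2 scale, about that of Ptp4a2 at 0.14, so these likenesses describe small differences between arrays.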

How the data were processed

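The deposited values are log2 expression for 41345 probe sets, 1 column per array, ranging from 2.50 to 14.1. RMA and Partek are named, without versions or roles, per the submitters' processing notes; RMA draws arrays to a shared distribution, so a shift shared by most transcripts would shrink. Their settings are not given in the sources consulted. The labels' protocols give 5 µg of total RNA per sample, labelled with biotin.

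Probe sets were named from the platform annotation: 1 gene symbol was listed for 23521, several for 1814 and none for 16010, which stay unnamed. Gene IDs of 23328 single-gene probe sets matched the RefSeq table of GRCm38.p6, with 0 symbols differing. A gene was read at its probe set with the highest mean over all arrays. All probe sets were tested with limma 3.58.1 in R 4.3.3 (lmFit, eBayes, group as the only term, two-sided, prior degrees of freedom 3.48), with Benjamini-Hochberg adjustment over all of them; genes with an adjusted p under 0.05 were called. With 3 samples a group, the smallest p of an exact permutation test is 0.1. The scripts were tested on simulated data. Tables and plots used Python 3.11.15, pandas 2.3.3, scipy 1.17.1 and matplotlib 3.10.9.

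The members, lists, tests and alternatives were chosen with earlier results of these data known. Named genes are all members, per list up to 4 called genes by size or, where none passed, the 2 with the smallest p, and a short fixed list (Mdm4, Bax, Bbc3, Pmaip1, Gadd45a, Sesn1, Plk2, Ddit4 and Cdkn1b). The alternatives tried were a replicate block, a trended and robust eBayes, a test without the dimmest 40% of probe sets, median centring or quantile normalization, a test of single-gene probe sets only, averaged probe sets per gene, and each array left out. No batch is given in the labels.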

Additional observations from a re-analysis of the deposited data

How the results depend on the processing

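Of 116 recomputed differences of the 9 members over 13 alternatives, 105 kept their direction and their side of the threshold, 2 passed it (Aen, above) and 9 changed sign. The sign changes were those of Cdkn1a under quantile normalization (-0.011) and median centring (-0.0021) and, leaving out 1 array, of Cdkn1a (-0.024 to 0.043), Trp53inp1 (-0.13 to 0.17) and Btg2 (-0.14 to 0.16). The members called were 1 with single-gene probe sets only and 1 with probe sets averaged, and 0 without each array in turn. Without each array in turn the members' median difference was -0.059 to 0.043, and the members whose groups did not overlap were 2 to 4. All genes called numbered 92, against 241 with trend and robust, 140 without the dimmest 40%, 677 with single-gene probe sets only, 698 with probe sets averaged, and 1 to 34 without each array in turn. The pathway genes called were 1, against 2 with trend and robust, 2 without the dimmest 40%, 9 with single-gene probe sets only, 8 with probe sets averaged, and 0 to 1 without each array in turn. The cause of these shifts was not tested. Eda2r had no value without the dimmest 40%, since it was among them.

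With the replicate number as a block, limma called 0 of all genes, 0 members and 0 pathway genes; 2385, 1 and 17 of them had an unadjusted p under 0.05. Deviations of same-numbered arrays correlated at 0.20, 0.096 and 0.033, and those of differently numbered arrays at -0.15 to 0.060. These values do not settle whether the numbers pair the samples. The main test did not pair them.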
